A study of Mus musculus with 6 samples.

Results

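The small leucine-rich proteoglycans are secreted matrix proteins, and 10 of their genes, Bgn, Dcn, Fmod, Lum, Prelp, Ogn, Omd, Aspn, Kera and Chad, were examined in embryonic mouse rib cages with and without Foxc1 and Foxc2. The genes were chosen by family membership and matched by symbol to the 55487 gene IDs of the count table. All 10 had a single ID and all 10 were among the 26596 genes tested. RNA-Seq was performed on RNA of rib cages at 16.5 dpc (days post coitum), from 3 control embryos (E420, E434 and E435), called wild type in the labels, and from 3 mutant embryos (E423, E433 and E440) with the label genotype Col2-cre;Foxc1-/-;Foxc2-/-. In the mutants floxed alleles of both forkhead transcription factor genes were deleted by a Cre recombinase under Col2 control, which is active in growth plate chondrocytes, the perichondrium and the primary ossification centre, so cells outside that lineage kept both genes. The mice were of a mixed C57B6 and Black Swiss background, compared embryos were littermates, and which embryos shared a litter was not given in the sources used here. The study chose the rib cage because other tissues could be removed from it efficiently, and its RNA-Seq methods name only the ribs as the source. Mothers in the study's crosses were homozygous for the floxed alleles, so a control from such a cross carries floxed alleles. The controls of the study's skeletal preparations lacked the Cre transgene, and for the sequenced controls no more than the label was given. Differences between embryos of a group may include technical spread.

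A protein core of leucine-rich repeats is shared by the family, and most members carry chondroitin, dermatan or keratan sulfate chains. The cores bind collagen fibrils and set how fibrils assemble and how thick they grow, and several also bind growth factors such as transforming growth factor beta. Biglycan (Bgn), decorin (Dcn) and asporin (Aspn) form one class by sequence. Fibromodulin (Fmod), lumican (Lum), keratocan (Kera), osteomodulin (Omd, also called osteoadherin) and Prelp form another, osteoglycin (Ogn, also called mimecan) belongs to a further class, and chondroadherin (Chad), which lacks such chains, to another again. In the skeleton, chondroadherin is a product of cartilage and osteomodulin a product of bone.

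Most members lie beside each other in the genome. In GRCm38, Aspn (chromosome 13, 49544443 to 49567565), Omd (49582462 to 49592822) and Ogn (49608046 to 49624501) follow each other on chromosome 13. Dcn (97479609 to 97518143), Lum (97565128 to 97572703) and Kera (97606879 to 97613692) follow each other on chromosome 10. On chromosome 1, Prelp (133910304 to 133921414, reverse strand) is followed by Fmod (134037254 to 134048277). Bgn (73483602 to 73495933) is on chromosome X and Chad (94565047 to 94569127) on chromosome 11. The genes Aspn, Omd and Ogn sit inside the span of Cenpp on the opposite strand, and strand was not used in counting. The exons of Cenpp share 7 bases with those of Aspn and 0 bases with those of Omd or Ogn. For Prelp, 9.68% of exon bases are shared with an opposite-strand gene that had at most 0.0418 CPM (counts scaled to a common library size) in any library.

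The 250 bases before the annotated start are shown for the 3 neighbours on chromosome 13, whose levels were all lower on average in mutants, and for Fmod, which had a lower level in mutants on top of a large spread between libraries. They are RefSeq sequences on GRCm38.p6, on the forward strand, at chr13:49544193-49544442 for Aspn, chr13:49582212-49582461 for Omd, chr13:49607765-49608014 for Ogn and chr1:134037004-134037253 for Fmod. Capitals mark matches on either strand to short motif cores. The forkhead core was searched as GTAAACA, the core bound by SOX factors was searched as AACAAT, the core bound by RUNX factors was searched as TGTGGT, and the box for the TATA-binding protein was searched as TATAAA.
Aspn: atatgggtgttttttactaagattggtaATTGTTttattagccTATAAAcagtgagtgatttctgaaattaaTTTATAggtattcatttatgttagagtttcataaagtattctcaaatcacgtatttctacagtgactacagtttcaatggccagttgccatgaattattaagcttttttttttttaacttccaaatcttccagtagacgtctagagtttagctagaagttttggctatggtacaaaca
Omd: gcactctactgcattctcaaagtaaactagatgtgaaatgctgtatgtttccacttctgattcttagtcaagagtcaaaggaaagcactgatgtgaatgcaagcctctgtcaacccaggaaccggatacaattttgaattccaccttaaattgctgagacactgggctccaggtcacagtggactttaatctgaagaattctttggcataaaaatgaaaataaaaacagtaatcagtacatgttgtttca
Ogn: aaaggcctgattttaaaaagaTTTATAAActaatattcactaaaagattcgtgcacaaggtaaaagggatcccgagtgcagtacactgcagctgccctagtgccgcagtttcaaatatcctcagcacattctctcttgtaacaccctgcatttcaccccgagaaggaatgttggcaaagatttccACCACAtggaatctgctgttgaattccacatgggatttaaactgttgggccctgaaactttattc
Fmod: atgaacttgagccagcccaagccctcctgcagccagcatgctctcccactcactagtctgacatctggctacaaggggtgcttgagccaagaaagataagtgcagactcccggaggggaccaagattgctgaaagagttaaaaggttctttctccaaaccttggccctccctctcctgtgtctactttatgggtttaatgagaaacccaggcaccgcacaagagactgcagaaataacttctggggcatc

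The promoter table matched 8 of the 10 members, all but Dcn and Lum. Over its 32851 promoters, 3.17% held the forkhead letters, 9.42% the SOX letters, 14.0% the RUNX letters and 12.4% the TATA letters in the same 250 bases. Among the 8 members, 0 held the forkhead letters, 3 the SOX letters (Aspn, Prelp and Kera), 1 the RUNX letters (Ogn) and 3 the TATA letters (Aspn, Ogn and Chad). In Ogn the RUNX match began 65 bases before the start, and its 2 TATA matches, which overlap each other on opposite strands, began 229 and 227 bases before it. That start is the RefSeq one, as the window ends at 49608014, short of the Ogn start of 49608046 given above. The RefSeq start also differs for Kera and Prelp. The Kera window, 97606955 to 97607204, lies inside the Kera span given above, so its SOX matches are not upstream of that span. The Prelp window, 133921402 to 133921651, reaches into the end of the Prelp span. In Aspn the SOX match began 222 bases before the start and the TATA matches 207 and 178 bases before it. Omd and Fmod held none of these letters in this window, which is a description of the sequence alone.

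Library totals ran from 37853988 to 47794799 counts, and 1 count was worth 0.0209 to 0.0264 CPM, so all 10 members were measured far above the counting limit. Libraries were scaled by the TMM method, and mutants were compared with controls by edgeR's quasi-likelihood test with Benjamini-Hochberg adjustment over all 26596 genes, and a gene passed both limits with an adjusted p under 0.1 and an absolute log2 fold change of at least 1. The targeted genes followed the labels. In the values that follow, controls are given in the order E420, E434, E435 and mutants in the order E423, E433, E440. Foxc1 had 23.1, 36.9 and 24.2 CPM in controls against 3.56, 9.60 and 3.51 CPM in mutants, and Foxc2 had 1.98 to 4.83 CPM in controls and 0.649 to 1.14 CPM in mutants.

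Control E434 and mutant E433 stood apart from the other libraries of their groups. Col2a1, the main collagen of cartilage, was at 14426 CPM in E434 against 631 and 582 CPM in the other controls, and at 4926 CPM in E433 against 177 and 162 CPM in the other mutants. These 2 libraries are called cartilage-rich below, a description of their RNA and not a group of the study. The remaining libraries formed close pairs. Over genes, log2 ratios had an SD of 0.156 between controls E420 and E435 and 0.135 between mutants E423 and E440, and no member differed by more than 1.16-fold within either pair. Chi-square per gene on fragment counts was 6.28 and 2.43 for these pairs, above the value of 1 for sampling noise, so all 6 were kept as samples. Fold changes of the 10 members are therefore also given without the cartilage-rich libraries, and for gene lists the counts past both limits without them. The choice of these libraries came from values of these data. Leaving them out narrows the spread of genes that vary with Col2a1, and p-values of such fits measure the small spread of the close pairs. Folds between E433 and E434 compare 1 library with 1 and have no replicate. In bulk tissue, fewer cells of a type and less RNA per cell cannot be told apart.

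Across the family, 9 of the 10 members had a lower fitted level in mutants than in controls, and Dcn had a higher one. Of all 26596 genes tested, 12968 had a lower fitted level. The median log2 fold change of the 10 was -0.63, and that of all genes tested was 0.01. None of the 10 passed both limits with edgeR, where 0.0639% of all genes did. An unadjusted p under 0.05 was found for 4 members (Omd, Kera, Aspn and Lum), against 10.6% of all genes. For the same 4, every mutant library lay below every control library, which was so for 8.21% of all genes. The Wald test of DESeq2, run on these counts, put 2 members, Omd and Kera, lower past both limits, against 0.459% of all genes.

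**Figure D1:**
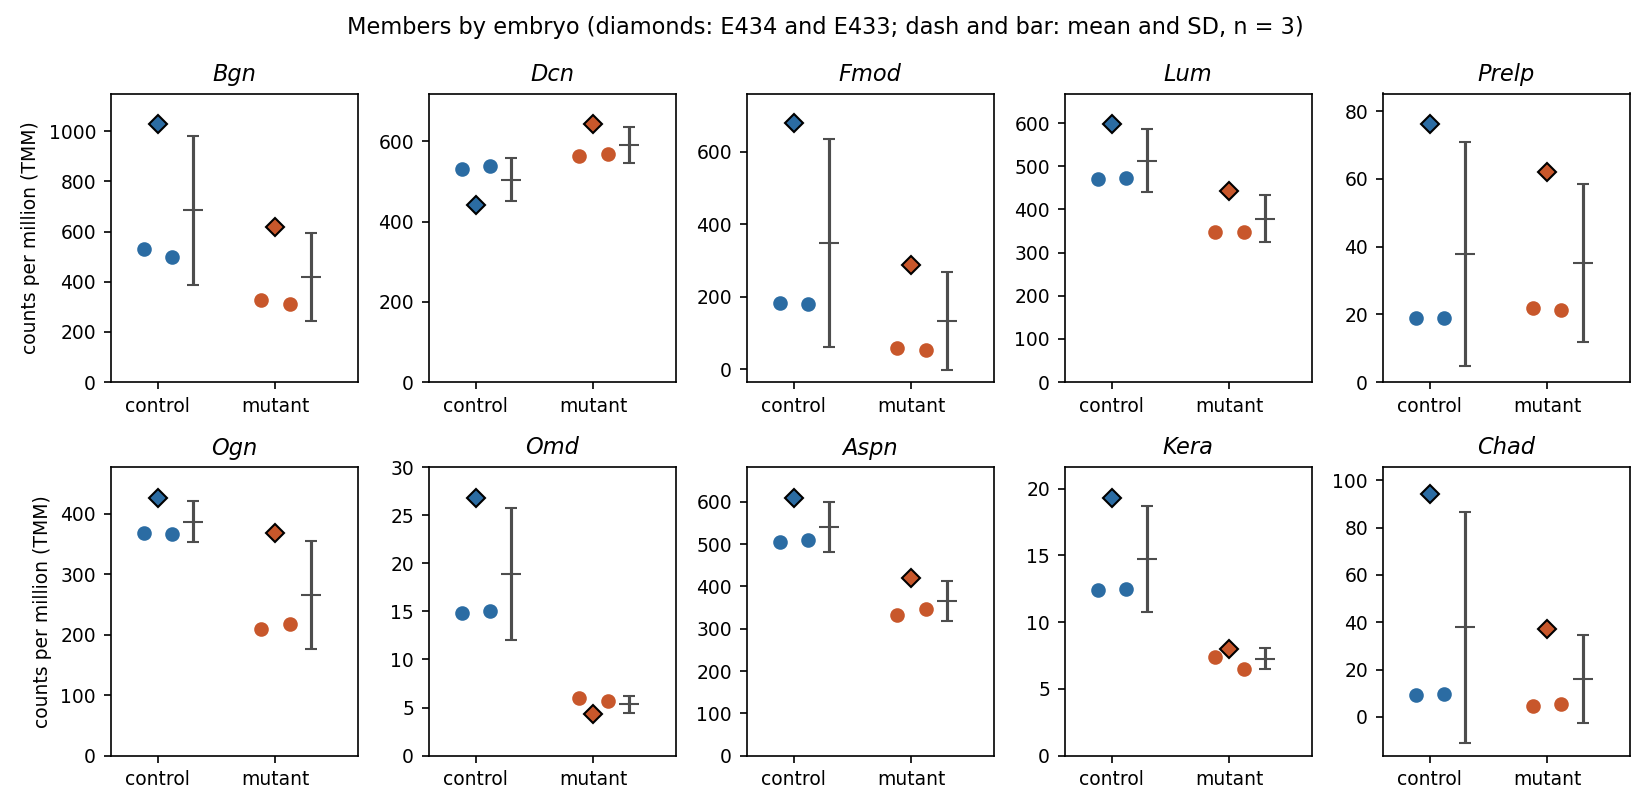
Level of each of the 10 genes in each library, in TMM-scaled CPM on linear axes, with blue points for controls and orange points for mutants, diamonds for E434 and E433, and a dash and bar for mean and SD (n = 3). Omd, Kera, Aspn and Lum show all 3 mutants below all 3 controls, and Chad, Prelp and Fmod show the diamonds far above the other points of their group.

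Omd encodes osteomodulin, a keratan sulfate proteoglycan deposited in bone matrix. It was at 14.8, 26.8 and 15.0 CPM in controls and at 5.96, 4.36 and 5.72 CPM in mutants. The groups did not overlap, and unlike all other members Omd was lower in the cartilage-rich mutant than in the other mutants. Controls averaged 18.9 ± 6.88 CPM (SD, n = 3), and mutants 5.35 ± 0.864 CPM (SD, n = 3). The log2 fold change of -1.82 (standard error 0.277, 95% interval -2.48 to -1.15) had an edgeR adjusted p of 0.155, with 0.102 to 0.176 over the alternative edgeR settings on all libraries, and a DESeq2 adjusted p of 4.31e-08. Between the cartilage-rich libraries alone, E433 held 0.163 times the level of E434. Without them the fold was 0.393, a log2 fold change of -1.35 with an edgeR adjusted p of 1.20e-09.

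Kera encodes keratocan, best known from the cornea and also made in tendon. It was at 12.4, 19.3 and 12.5 CPM in the controls and at 7.38, 7.98 and 6.46 CPM in the mutants. Mutant levels spanned a narrow range below all controls. The log2 fold change was -1.02 (standard error 0.208, 95% interval -1.52 to -0.52), with an adjusted p of 0.260 from edgeR (0.185 to 0.285 over the alternative edgeR settings) and 9.58e-04 from DESeq2. The mutant level was 0.414 times the control level between the cartilage-rich libraries and 0.556 times without them.

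Aspn encodes asporin, which binds collagen and transforming growth factor beta. Its levels were 505, 609 and 509 CPM in controls and 332, 420.3 and 347 CPM in mutants. The groups did not overlap, and the fold was nearly equal between the cartilage-rich libraries (0.690) and without them (0.672). The log2 fold change over all libraries was -0.56 (standard error 0.132, 95% interval -0.88 to -0.24, edgeR adjusted p = 0.330, DESeq2 adjusted p = 0.0101).

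Lum encodes lumican, a keratan sulfate proteoglycan of many connective tissues. It was at 469.5, 597 and 473 CPM in controls and at 347, 442 and 347 CPM in mutants. The highest mutant, the cartilage-rich E433, lay just below the lowest control. Between the cartilage-rich libraries the fold was 0.740 and without them 0.737. A log2 fold change of -0.44 was fitted (standard error 0.149, edgeR adjusted p = 0.421). Over the 6 libraries Lum and Aspn were the most alike of all pairs of members, with a root mean square difference of 0.07 in their log2 CPM after each was centred on its mean.

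Ogn encodes osteoglycin, a small proteoglycan of bone and other connective tissue. It was at 368, 426 and 366 CPM in controls and at 209.8, 368 and 217 CPM in mutants. The mutants E423 and E440 were well below all controls, while E433 was level with E420, so the groups overlapped. For Ogn the log2 fold change was -0.55 (standard error 0.230, 95% interval -1.10 to 0.01, edgeR adjusted p = 0.475). The fold was 0.864 between the cartilage-rich libraries and 0.582 without them.

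Bgn encodes biglycan, a proteoglycan with paired chondroitin or dermatan sulfate chains that is abundant in bone and cartilage. It was at 529, 1027 and 498 CPM in controls and at 326, 620 and 311 CPM in mutants. The cartilage-rich library was 2.0-fold above the others among controls and 1.95-fold above them among mutants. The fold was nearly the same between the cartilage-rich libraries (0.604, 1 library per group) and without them (0.621). Over all libraries the log2 fold change of -0.71 had a standard error of 0.383 and an edgeR adjusted p of 0.553.

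Fmod encodes fibromodulin, a keratan sulfate proteoglycan of tendon and cartilage that takes part in collagen fibril growth. It was at 183, 679 and 181 CPM in controls and at 58.2, 288 and 53.2 CPM in mutants. Mutant E433 was above controls E420 and E435, and the other mutants were below all controls. The log2 fold change over all libraries was -1.38 with a standard error of 0.842 and a 95% interval of -3.40 to 0.64 (edgeR adjusted p = 0.595). The fold was 0.425 between the cartilage-rich libraries. Without them it was 0.307, a log2 fold change of -1.70 (standard error 0.0512, edgeR adjusted p = 2.78e-16).

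Chad encodes chondroadherin, a cartilage protein that binds cells through an integrin. It was at 9.44, 94.3 and 9.69 CPM in controls and at 4.71, 37.3 and 5.46 CPM in mutants. Chad had the widest spread of the 10, with the cartilage-rich library 9.86-fold above the other controls and 7.33-fold above the other mutants. For Chad the log2 fold change was -1.26 with a standard error of 1.19 (95% interval -4.12 to 1.6, edgeR adjusted p = 0.740), and DESeq2 gave no p for it. The fold was 0.395 between the cartilage-rich libraries and 0.534 without them.

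Prelp encodes a proline- and arginine-rich member that binds heparan sulfate as well as collagen. It was at 18.8, 76.1 and 18.8 CPM in controls and at 21.9, 62.2 and 21.4 CPM in mutants. The direction differed between the cartilage-rich libraries, with 1 library per group, and the others. The mutant level was 0.818 times that of controls between the cartilage-rich libraries and 1.15 times without them (log2 fold change 0.21, edgeR adjusted p = 0.0427, DESeq2 adjusted p = 0.13 on the same libraries). Over all libraries the log2 fold change was -0.11, with a 95% interval from -1.76 to 1.55 that leaves its direction unknown (edgeR adjusted p = 0.968).

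Dcn encodes decorin, a proteoglycan of fibrous connective tissue with a single sulfated chain. It was at 532, 442 and 539 CPM in controls and at 563, 642 and 568 CPM in mutants. All mutants were above all controls, which was so for 6.81% of all genes. Controls averaged 504 ± 54.2 CPM (SD, n = 3), and mutants 591 ± 44.2 CPM (SD, n = 3). Most of the gap was in the cartilage-rich libraries, where the fold was 1.45, against 1.06 without them. The log2 fold change was 0.23 (standard error 0.117, 95% interval -0.05 to 0.51, edgeR adjusted p = 0.535), and without the cartilage-rich libraries it was 0.08 (edgeR adjusted p = 0.148).

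When E434 and E433 were left out, Fmod and Omd fell past both limits, as did 2.59% of the 25045 genes then tested. An adjusted p under 0.1 with a lower level in mutants was found for 8 of the 10 members, all but Prelp and Dcn, against 18.3% of genes. The median over the members was -0.73, against 0.00 over all genes in that fit. This fit rests on the 2 close pairs, whose spread may be partly technical, so its p-values measure that small spread. DESeq2 on the same 4 libraries also put Fmod and Omd lower past both limits, against 1.55% of genes. Leaving out E433 alone put Fmod (log2 fold change -2.64, edgeR adjusted p = 0.0919), Omd (-1.69, adjusted p = 0.0415) and Kera (-1.09, adjusted p = 0.0605) past them, against 1.37% of genes that were lower past both limits.

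**Figure D2:**
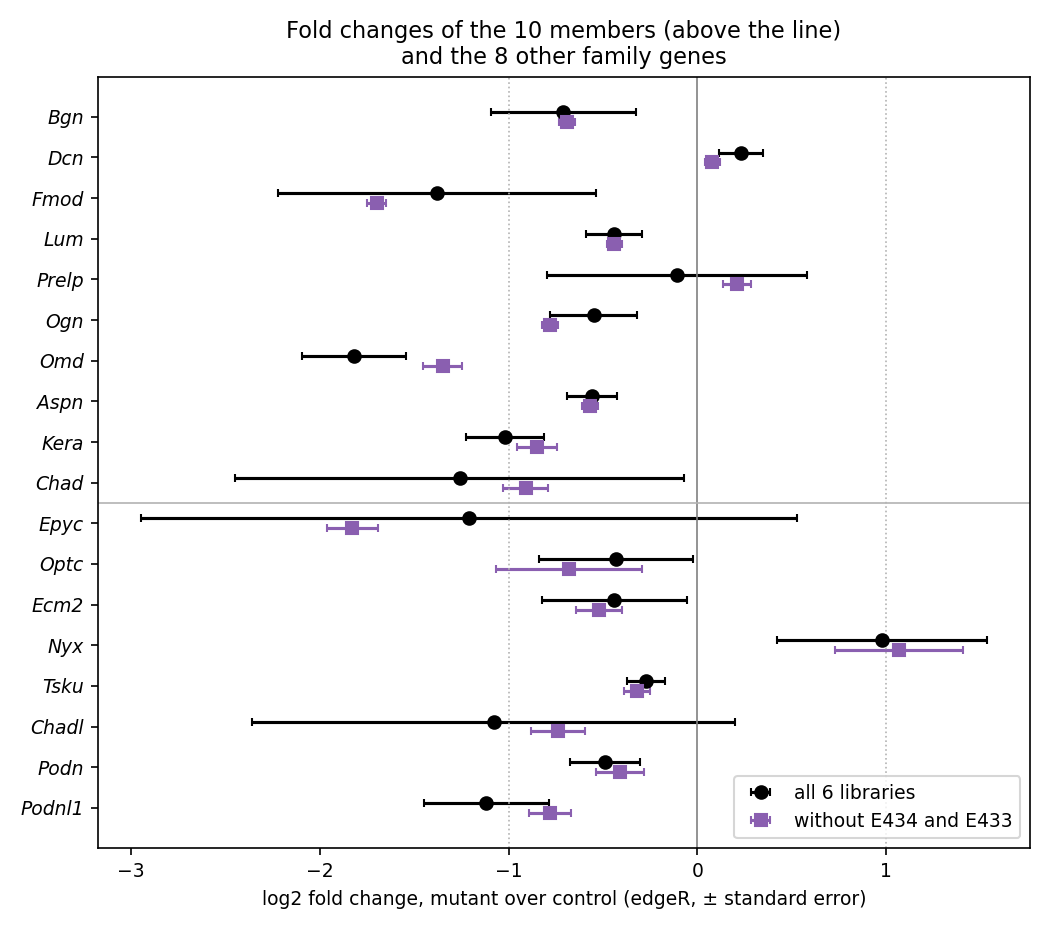
Log2 fold change of mutants over controls with its standard error for the 10 members (above the grey line) and 8 other genes of the family (below it), from edgeR on all 6 libraries (black) and without E434 and E433 (purple), with dotted lines at the fold limit. The purple bars are shorter, Dcn lies right of 0 in both fits, and Prelp changes side, from -0.11 to 0.21.

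The other genes of the family followed the same division. None of 8 passed both limits with edgeR, 7 had a lower fitted level in mutants, and their median log2 fold change was -0.47. Epyc, which encodes the cartilage proteoglycan epiphycan and lies beside Kera, was at 13.3, 323 and 17.1 CPM in controls and at 4.81, 144 and 3.81 CPM in mutants. Chadl, a chondroadherin relative, was at 5.60, 66.5 and 5.73 CPM in controls and at 3.61, 30.0 and 3.19 CPM in mutants. Both resembled Chad in that the cartilage-rich library was over all others of its group by a wide margin. DESeq2 gave no adjusted p for Epyc or Chadl. Exons of Epyc and Chadl share 40.6% and 19.5% of their bases with an opposite-strand gene, so their counts are uncertain. The gene opposite Epyc had at most 0.405 CPM in any library, and that opposite Chadl had 16.4 to 20.5 CPM. Podnl1 was at 12.4, 12.9 and 11.9 CPM in controls and at 6.42, 2.97 and 7.69 CPM in mutants. Its log2 fold change was -1.12 (standard error 0.331, edgeR adjusted p = 0.389, DESeq2 adjusted p = 0.0223). With DESeq2, Podnl1 was the 1 gene of these 8 lower past both limits (log2 fold change -1.11), against 0.459% of all genes. As with Omd, the lowest Podnl1 level was in E433. Podn and Tsku had log2 fold changes of -0.49 and -0.27 (edgeR adjusted p = 0.440 and 0.442). Ecm2, beside Aspn, had a log2 fold change of -0.44 (edgeR adjusted p = 0.715), and Optc and Nyx were at 1.30 CPM or less in every library. Without E434 and E433, Epyc was lower past both limits (log2 fold change -1.83, edgeR adjusted p = 8.41e-10) and Nyx higher (1.07, adjusted p = 0.0193), where 5.66% of genes were higher past them. In that fit Podnl1 was at -0.78 (adjusted p = 1.15e-05) and Chadl at -0.74 (adjusted p = 3.84e-04), short of the fold limit.

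**Figure D3:**
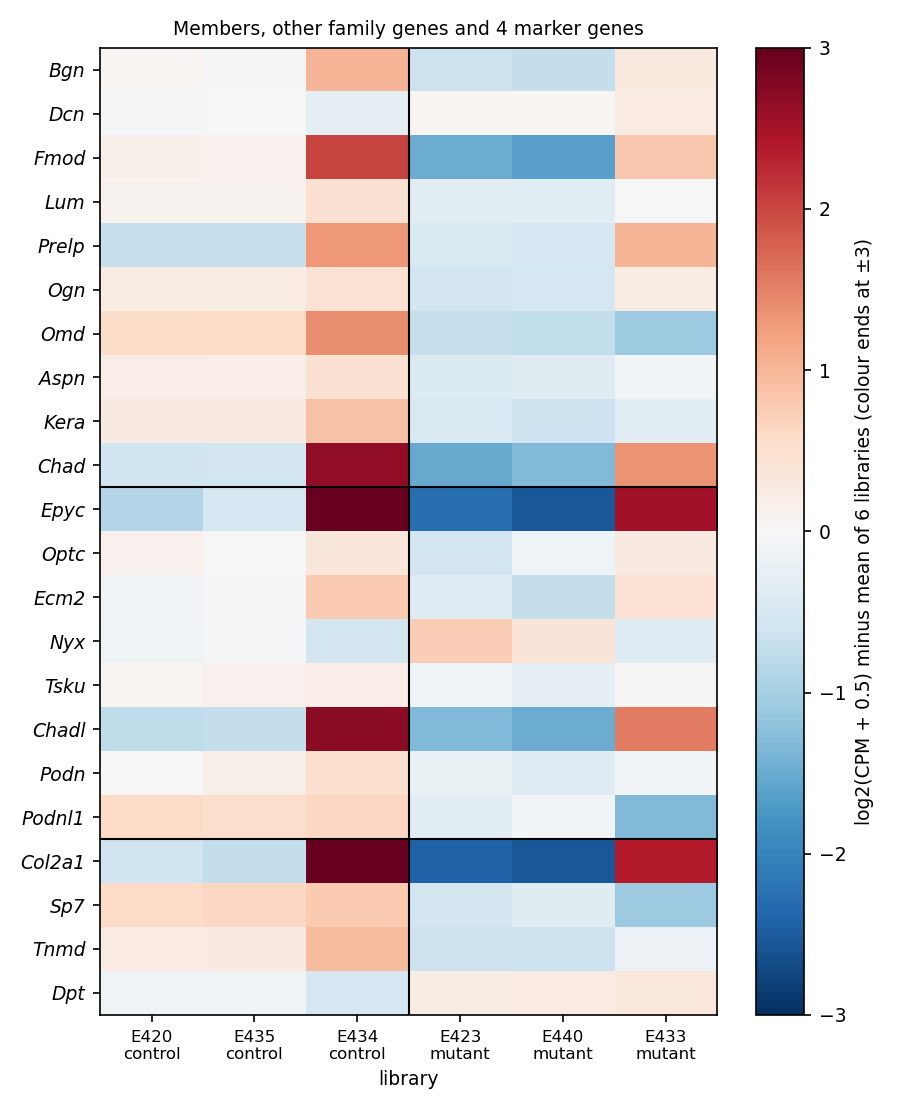
Log2(CPM + 0.5) of each gene minus its mean over the 6 libraries, in red above and blue below that mean with colours ending at ±3, for the 10 members, the 8 other family genes and 4 marker genes, with the cartilage-rich library last in each group. Chad, Epyc and Chadl are red in E434 and E433 as Col2a1 is, whereas Omd and Podnl1 are bluest in E433, as Sp7 is.

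The genes most like each member over the 6 libraries were sought among 11121 other genes with a mean of at least 10 CPM, by the root mean square difference of centred log2 CPM. The nearest to Prelp were Sox9 (0.21), S100b (0.25) and Sox5 (0.26), and the nearest to Chad were Chadl (0.19), Xylt1 (0.28) and Col11a2 (0.30). The nearest to Fmod were Col11a1 (0.14), Unc5c (0.23) and Fbln7 (0.27). Sox9 and Sox5 encode chondrocyte transcription factors, and Col11a1 and Col11a2 chains of a cartilage collagen. For Omd the list was Alpl, Sgms2 and Tnn, each at 0.26. Alpl encodes the alkaline phosphatase of mineralizing cells and was at 89.7, 111 and 89.3 CPM in controls and at 36.7, 18.4 and 35.5 CPM in mutants, with its lowest level in E433 as for Omd. For Kera they were Vipr2 (0.074), Hhip (0.081) and Kcnk1 (0.10), for Bgn Slc39a14 (0.059), Col16a1 (0.068) and P4ha1 (0.073), and for Ogn Zfp354c (0.035), Angptl1 (0.041) and Adamts6 (0.054). Those of the remaining members were Nuak1, Praf2 and Tmem97 for Lum (0.020 to 0.033), Ptgis, Tmem263 and Tmem98 for Aspn (0.039 to 0.049), and C1qtnf2, Metap1d and Zgpat for Dcn (0.025 to 0.039).

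Ratios between neighbouring family genes within a library do not depend on library scaling. Prelp to Fmod, counted as reads of one over reads of the other, was 0.103, 0.112 and 0.104 in controls and 0.376, 0.216 and 0.401 in mutants. The 3 controls were within a narrow range even though E434 held several times more of both transcripts. Dcn to Lum was 1.13, 0.740 and 1.14 in controls and 1.62, 1.45 and 1.64 in mutants. Kera to Lum was 0.0264, 0.0323 and 0.0264 in controls and 0.0213, 0.0181 and 0.0186 in mutants. On chromosome 13, Omd to Aspn was 0.0294, 0.0440 and 0.0294 in controls and 0.0179, 0.0104 and 0.0165 in mutants, and Omd to Ogn went from a mean of 0.0481 ± 0.0129 (SD, n = 3) to 0.0222 ± 0.00905 (SD, n = 3). In 5 of the 8 ratios computed the groups did not overlap, against 17.1% of 12985 pairs of adjacent genes with a mean of at least 5 CPM. The 8 ratios share genes, among them Omd and Lum, and follow from the levels given above. Optc was below 5 CPM in every library, so its ratio would not enter that background. Each of the 5 had an exact permutation p of 0.1 (2-sided, on mean log2 ratios), the smallest that 3 against 3 allows, and 0.16 after adjustment over the 8. The groups overlapped for Optc to Prelp, Epyc to Kera and Ecm2 to Aspn (exact permutation p = 0.4, 0.6 and 0.7).

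**Figure D4:**
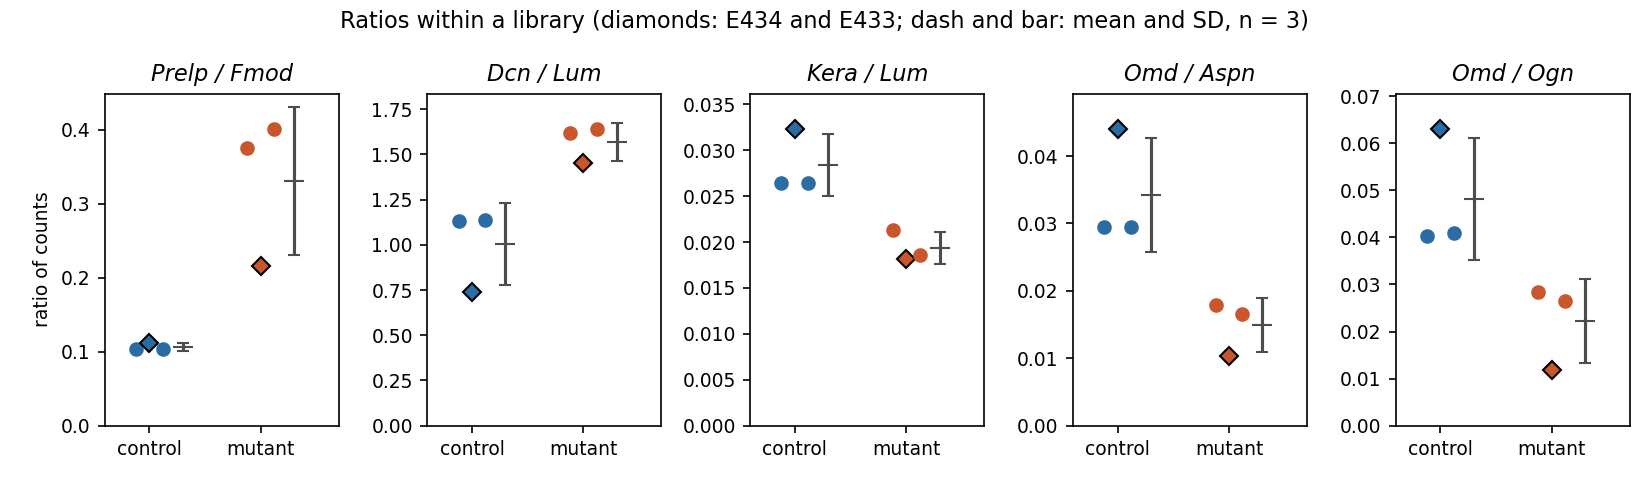
Ratio of counts of neighbouring family genes within each library, on linear axes from 0, with controls in blue, mutants in orange, diamonds for E434 and E433, and mean and SD beside them (n = 3). Prelp to Fmod and Dcn to Lum lie higher in all 3 mutants, and Kera to Lum, Omd to Aspn and Omd to Ogn lie lower in all 3.

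Levels were compared between genes in TPM, the share of transcripts after length is taken into account. By the authors' RSEM values the order of the control means was Bgn (492 ± 222 TPM, SD, n = 3), Dcn (415 ± 40.6 TPM), Aspn (338 ± 41.0 TPM), Lum (303 ± 47.1 TPM), Ogn (207 ± 20.9 TPM) and Fmod (161 ± 135 TPM), followed by Chad (33.5 ± 43.7 TPM), Omd (17.3 ± 6.42 TPM), Prelp (17.1 ± 15.3 TPM) and Kera (9.30 ± 2.74 TPM). The ranges of neighbours in that order overlapped, except those of Lum and Ogn, at 273 to 357 and 193 to 231 TPM. The first place of Bgn came from E434, at 748 TPM against 368 TPM for Dcn. Dcn was above Bgn in controls E420 (439.6 and 381 TPM) and E435 (437 and 347 TPM) and in all 3 mutants, whose means were 476 ± 72.9 TPM for Dcn and 302 ± 150.3 TPM for Bgn (SD, n = 3). The order depended on the length used. With featureCounts counts divided by the summed exon length of the gene, Aspn and Lum came first in both groups, while Bgn and Dcn, whose summed exon lengths of 6099 and 5838 bases are the longest of the 10, moved to places 4 and 6 in controls.

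Together the 10 genes took 0.173, 0.256 and 0.168% of TPM in controls and 0.119, 0.201 and 0.119% in mutants. The groups overlapped through E433 (exact permutation p = 0.3, 2-sided). Within this family total, Dcn made up 25.4, 14.4 and 26.0% in controls and 36.5, 27.8 and 36.5% in mutants, which did not overlap. Omd made up 0.794 to 0.964% in controls and 0.220 to 0.430% in mutants, also without overlap, as did Kera (0.448 to 0.487% and 0.267 to 0.367%). For each of these shares the exact permutation p was 0.1, the smallest that 3 against 3 allows, without adjustment over the 10 shares. Shares of 1 total depend on each other and follow from the levels given above. How often such shares part over all genes was not computed. The shares of the other members overlapped between groups.

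**Figure D5:**
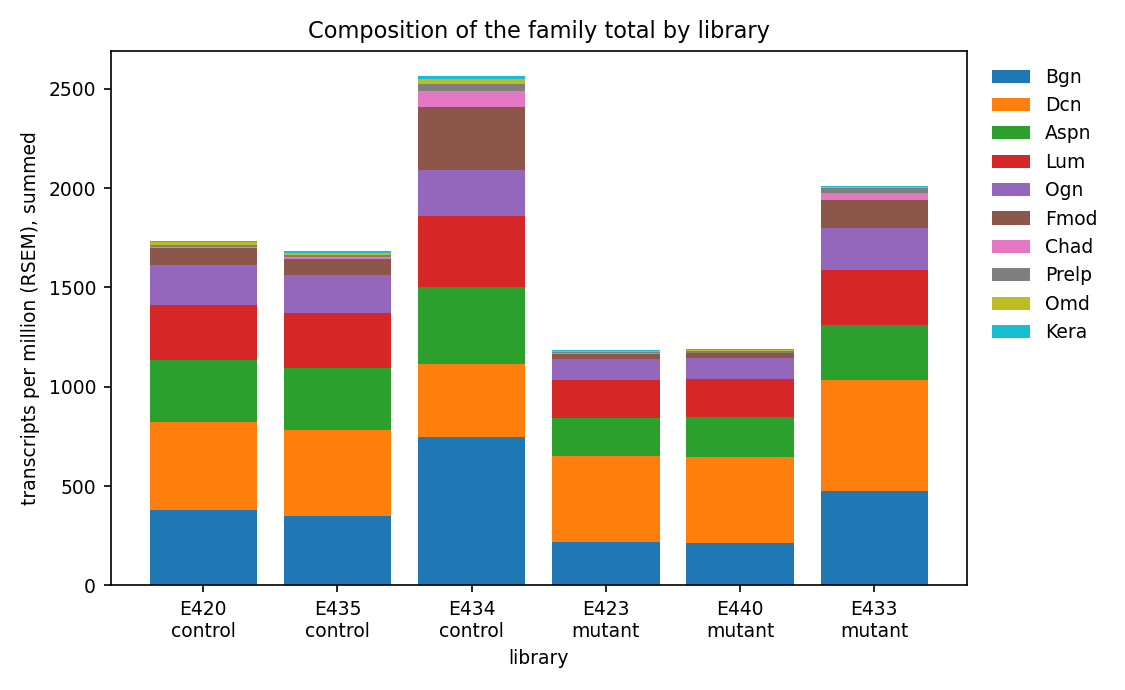
Summed RSEM TPM of the 10 genes in each library, stacked by gene, with the cartilage-rich library last in each group. The totals run from 1187 TPM in E423 to 2563 TPM in E434, and the Dcn segment is of similar height in E420, E435, E423 and E440 while most other segments are shorter in E423 and E440 than in E420 and E435.

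Genes that work with the family were counted by role. For comparison with the counts that follow, 12968 of all 26596 genes tested had a lower fitted level. Of 13 collagens that the proteins bind or that share their fibrils, 0 passed both limits with edgeR and 9 had a lower fitted level. Their median log2 fold change was -0.49. Without E434 and E433, 3 of the 13 were lower past both limits, against 2.59% of genes. They were the cartilage collagen genes Col2a1, Col9a1 and Col11a1, and Col2a1 is the gene by which those libraries were set apart. Col1a1 and Col1a2, the chains of type I collagen, had log2 fold changes of -0.65 and -0.61 (edgeR adjusted p = 0.407 and 0.409), and Col5a2, a chain of the collagen that starts type I fibrils, -0.50 (adjusted p = 0.421). Of 21 genes for the synthesis and sulfation of the chains, 0 passed and 20 were lower, with a median of -0.26. The smallest p-values there belonged to B3gnt7, Dsel and B3galt6, with log2 fold changes of -0.50, -0.23 and -0.23 (edgeR adjusted p of 0.400 to 0.461). Without E434 and E433, 1 of the 21 (Chst5) was lower past both limits, against 2.59% of genes. Among 8 genes for processing and degradation, 0 passed and all 8 were lower, with a median of -0.25. Mmp13, a collagenase of hypertrophic cartilage and bone, was at 200.2, 207 and 208 CPM in controls and at 35.1, 4.29 and 37.8 CPM in mutants. Its log2 fold change was -3.0 (standard error 0.730, edgeR adjusted p = 0.346, DESeq2 adjusted p = 0.0156). Mmp14 and Pcolce followed at -0.47 and -0.30 (edgeR adjusted p = 0.408 and 0.429). Mmp13 was the 1 gene of these 8 past both limits with DESeq2, and also without E434 and E433 (log2 fold change -2.48, edgeR adjusted p = 1.53e-18). Over all genes, 0.459% and 2.59% were lower past both limits in those fits. Of 12 growth factors and receptors that members bind, 0 passed, 9 were lower and the median was -0.22. Tgfb1 had a log2 fold change of -0.49 (edgeR adjusted p = 0.347), Egfr -0.38 (0.390) and Itga2, a chain of the integrin bound by chondroadherin, -0.37 (0.421). None of the 12 passed both limits with DESeq2 or, with edgeR, without E434 and E433, a fit in which 6 were lower and 2 higher at an adjusted p under 0.1. Over all genes in that fit, 18.3% were lower at that adjusted p.

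Markers of the cells that make or surround the family also differed between libraries. The 10 osteoblast genes summed to 1676 to 1739 CPM in controls and 353 to 857 CPM in mutants, with E433 lowest. All 10 had a lower fitted level, against 12968 of all 26596 genes. Phex passed both limits (log2 fold change -1.68, edgeR adjusted p = 0.0775), as did 0.0639% of all genes. Sp7 and Dmp1, next by p, had log2 fold changes of -1.32 and -2.51 (edgeR adjusted p = 0.146 and 0.155). Of the 10, 8 were lower past both limits with DESeq2, against 0.459% of genes, and 8 with edgeR without E434 and E433, against 2.59%. The 6 tendon genes summed to 677 to 999 CPM in controls and 427 to 652 CPM in mutants, and 0 passed, with Mkx at -1.38, Scx at -0.67 and Tnmd at -1.01 (edgeR adjusted p = 0.244, 0.305 and 0.325). Of the tendon genes, 3 were lower past both limits with DESeq2 (Mkx, Tnmd and Cilp2) and 1 (Mkx) with edgeR without E434 and E433, against the same 0.459% and 2.59% of genes. The 13 early chondrocyte genes summed to 1355 to 23528 CPM in controls and 460.3 to 8535 CPM in mutants, and 0 passed, with Col11a2, Matn3 and Snorc having the smallest p (edgeR adjusted p of 0.654 to 0.764). Without E434 and E433, 9 of the 13 were lower past both limits, against 2.59% of genes, with a median log2 fold change of -1.53. Those libraries were set apart by Col2a1, 1 of the 13. Leaving them out narrows the spread of Col2a1 and of genes that vary with it, so this count is no separate evidence. The Sox genes of the list were not among the 9. In the fit without E434 and E433, Sox9 had a log2 fold change of -0.03 (edgeR adjusted p = 0.803). Sox5 was at -0.32 (adjusted p = 0.0878) and Sox6 was higher, at 0.22 (adjusted p = 0.0069). The 8 fibroblast genes summed to 8292 to 9191 CPM in controls and 8740 to 11322 CPM in mutants. Most of that sum was Col3a1, at 7923, 8600 and 7673 CPM in controls and 8047, 10535 and 8005 CPM in mutants. The median log2 fold change of the 8 was 0.41, and 1 gene, Pdgfra, had a lower fitted level (-0.37, edgeR adjusted p = 0.531). For 5 of the 8 every mutant was above every control, against 6.81% of all genes. None passed both limits, and Pi16, Clec3b and Thy1 had log2 fold changes of 0.83, 0.60 and 0.66 (edgeR adjusted p = 0.0775, 0.155 and 0.172). Without E434 and E433 the count past both limits was also 0. Dpt, a fibroblast matrix gene, was at 220.1, 169 and 221 CPM in controls and 279, 298 and 285 CPM in mutants, which like Dcn was lowest in E434 and highest in E433. No other gene of the 8 had that pattern. Among controls, Col3a1, Thy1 and Pdgfra were highest in E434. Among mutants, Clec3b, Mfap5 and Dpp4 were lowest in E433.

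Markers of other tissues were also detected and differed between libraries. The 6 skeletal muscle genes summed to 9493 to 17098 CPM in controls and 13165 to 23538 CPM in mutants (Myh8, Ckm and Acta1 had the smallest p, edgeR adjusted p of 0.445 to 0.516). The 6 keratinocyte genes summed to 11.3 CPM in E434, 4987 and 5823 CPM in the other controls, 3037 CPM in E433 and 26881 and 27018 CPM in the other mutants. Flg was at 0 in E434, and Flg, Krt1 and Krt10 had the smallest p (edgeR adjusted p of 0.326 to 0.647). The 5 adipocyte genes summed to 137 to 156 CPM in controls and 208 to 614 CPM in mutants, and Adipoq, Plin1 and Pparg led (edgeR adjusted p of 0.146 to 0.158). The 5 hepatocyte genes summed to 29.6 to 45.0 CPM in controls and 28.7 to 573 CPM in mutants, the highest being E433, and Serpina1a, Alb and Ttr led (edgeR adjusted p of 0.448 to 0.549). DESeq2 put all 5 adipocyte genes higher past both limits, where 1.33% of all genes were, and 1 keratinocyte and 1 hepatocyte gene (Flg and Serpina1a). Without E434 and E433, edgeR put 4 of the 6 muscle genes, all 6 keratinocyte genes and all 5 adipocyte genes higher past both limits, against 5.66% of genes. The hepatocyte median turned from 2.06 to -0.58 in that fit, with 1 gene higher past both limits and 3 lower at an adjusted p under 0.1. The part of these tissues in the levels of the 10 members was not tested.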

How the data were processed

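The authors sequenced rib cage RNA of 3 control and 3 mutant embryos. They deposited raw counts per gene (HISAT2 2.1.0 on GRCm38 and featureCounts 1.6.0, with both ends of a fragment counted separately, strand ignored and multi-mapping reads omitted), and, from STAR 2.7.6 and RSEM 1.2.31, expected counts and TPM per gene. Groups came from the labels. Another 12 columns of per-sample values beside the authors' own comparisons (DESeq2 1.26.0 fold changes and p-values) were not used.

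Genes with at least 10 summed counts (26596) were TMM-scaled and compared by the quasi-likelihood test of edgeR 4.0.16 in R 4.3.3. Log2 CPM used a prior count of 2. DESeq2 1.42.0, its size factors, other filters, a robust step, rounded expected counts, other limits and leaving libraries out were alternatives. Rounded expected counts with DESeq2, DESeq2 without E434 and E433, and other scales for group overlap were chosen after seeing the data. E434 and E433 were singled out from values of these data. Library totals of 37853988 to 47794799 counts set the precision, and counting error is small beside the spread between embryos. Scripts were tested on simulated data. Litters were not given, so whether embryos of the 2 groups pair is unknown, and no paired fit was made.

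The members and lists were chosen with earlier results of these data known. Named genes were the members, the other family genes, Foxc1, Foxc2, 4 level markers, list genes past both limits or else the 3 with the smallest p, and the 3 nearest genes to each member. Dmp1, Cilp2, Chst5 and Col9a1 were chosen after their values were seen. CPM are counts scaled to a library of 1000000 counts.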

Additional observations from a re-analysis of the deposited data

How the results depend on the processing

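The count of members past both limits was 0 with edgeR on all 6 libraries. It stayed 0 with DESeq2's size factors, the robust step, no low-count filter, filterByExpr, RSEM expected counts, no fold limit and a limit of 0.01 on the adjusted p. It was 2 with DESeq2's Wald test (Omd and Kera), 1 with that test on RSEM expected counts (Omd), and 2 without both cartilage-rich libraries (Fmod and Omd) with either tool. Over all genes and both directions, DESeq2's Wald test called 477 of 26596, and 359 of 21928 on RSEM expected counts. Without both cartilage-rich libraries, edgeR called 2066 and DESeq2 1443 of 25045. Leaving out 1 library gave 0 to 3 members, the 3 being Fmod, Omd and Kera without mutant E433, where 1087 of 25844 genes passed in either direction. The members were lower in every mutant than in every control for 4 genes by TMM CPM, 5 without TMM (Ogn added) and 3 by RSEM TPM (Lum lost). Over all genes the share was 8.21% by TMM CPM, and it was not computed on the other scales. Only Prelp and Chad changed direction in any setting run. Prelp had log2 fold changes from -0.81 to 0.91 when 1 library was left out (0.91 without E434, 0.14 without E423 and 0.15 without E440) and 0.21 without both cartilage-rich libraries with either tool (adjusted p = 0.0427 with edgeR and 0.13 with DESeq2). Chad ranged from -2.89 to 0.73, the latter without E434. The cause was not tested. Summed over the members, the control mean of 0.199% of TPM was 0.234% by featureCounts per kilobase, and the mutant mean of 0.146% was 0.157%. The limit on precision was the spread between libraries, not depth.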
